A study of Mus musculus with 6 samples.

Results

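The insulin-like growth factor (IGF) axis was described in RNA-seq counts of maxillary processes, the paired swellings of the embryonic face that form the upper jaw and palate, dissected from mouse embryos at E12.5 (strain C57BL/6, given as C57BL/6J in the methods). Its members here are 10 genes, chosen by symbol from the 53801 genes of the count files: the ligands Igf1 and Igf2, the receptors Igf1r and Igf2r, and the binding proteins Igfbp2 to Igfbp7. The study compared 3 WT samples with 3 samples of genotype Wnt1cre; Rosa26Dlx2/- (called Dlx2OE below), in which Cre removes a stop cassette and a CAG promoter at Rosa26 then drives Dlx2 with a 3xFlag tag. Cre is under the control of Wnt1, so the transgene is switched on in neural crest derivatives and not in the epithelium, endothelium or blood of the same tissue. The genotype carries Cre as well as the transgene, whereas the controls are labelled only as wild-type. The labels give 7 littermates and the methods 6 as the source of RNA, so the number of embryos behind each RNA preparation is not known, and no sex or litter is given per sample.

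IGF1 and IGF2 are secreted peptides that act through the receptor tyrosine kinase IGF1R, which signals by way of adaptors to PI3K, AKT and mTOR and promotes growth and cell survival. IGF2R, also the mannose 6-phosphate receptor, takes up IGF2 for degradation and carries no kinase. Binding proteins hold the peptides in extracellular fluid and matrix, and proteases such as the pappalysins release them by cutting the binding protein. In embryonic facial mesenchyme the axis is known as a growth signal, and IGFBP5 as a product of mesenchyme and of early skeletal cells.

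Of the 10 members, Igf1 alone passed the test, against 6.45% of all genes tested, and was higher in Dlx2OE by 2.32-fold. Igfbp5, the most abundant member per length, was at 0.528 times its WT level but missed the threshold (adjusted p = 0.0570). Neither receptor passed, with fold changes of 1.13 for Igf1r and 1.09 for Igf2r. Around the members, the pathway genes that passed included the IGFBP protease Pappa2, higher in Dlx2OE, and the imprinted RNA H19, lower in Dlx2OE.

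Levels are given in CPM, counts scaled to a common library total after TMM normalization, and levels of different genes are compared only as CPM divided by the merged exon length in kilobases (RPKM here). A gene passed at an adjusted p under 0.05 in the edgeR quasi-likelihood test, and errors of log2 fold changes are SEs. All 10 members had enough counts for the test. The total count on genes was 26155500 to 31308813 per sample, and 3 counts, the floor used here, were 0.0955 to 0.111 CPM. Reads on no annotated gene were 5.03% to 5.43% in WT and 5.75%, 7.81% and 14.7% in Dlx2OE samples 1 to 3. Dlx2, counted from the endogenous gene and the transgene together, had 42.9, 35.0 and 45.2 CPM in WT and 119, 131 and 123 CPM in Dlx2OE (log2 fold change 1.60 ± 0.12, adjusted p = 0.00241). Of 12 facial mesenchyme markers all were detected, with at least 136 counts in any sample, and their summed level was 2179 to 2594 CPM in WT and 2843 to 3001 CPM in Dlx2OE. In bulk RNA, fewer cells of a type and less RNA per cell cannot be told apart.

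A second gene model at the Igf2 locus limits what its count can show, and the exon that carries this point is printed first. Igf2 (ENSMUSG00000048583, chr7:142650766-142666816, reverse strand, GRCm38) shares exons with Gm49394, a model on the same strand whose 5′ end lies beyond that of Igf2. All 149 bases of the following internal Igf2 exon, at chr7:142654300-142654448 (reverse strand), are coding and are also an exon of Gm49394, and capitals mark that shared sequence, here the whole exon, as GENCODE M21 gives it.
Igf2 shared coding exon: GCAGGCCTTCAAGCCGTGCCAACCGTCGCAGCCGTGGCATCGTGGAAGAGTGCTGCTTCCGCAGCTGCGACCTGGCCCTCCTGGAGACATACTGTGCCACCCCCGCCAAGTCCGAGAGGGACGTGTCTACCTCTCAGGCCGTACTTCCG

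This exon is in 6 of the 9 annotated Igf2 transcripts. Of 678 annotated coding bases of Igf2, 546 (80.5%) lie in exons of Gm49394, and of 5723 merged exon bases, 3694 (64.5%) lie in an exon of Gm49394 or of the antisense gene Igf2os. In the union mode of htseq-count, a read that overlaps 2 genes is called ambiguous and is not counted for either. Gm49394 is listed with 0 counts in all 6 files. The counts of Igf2 therefore come from the 2029 exon bases in no other gene, which are mostly alternative leader exons, if the authors' annotation held the model as GENCODE M21 does.

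**Figure D1:**
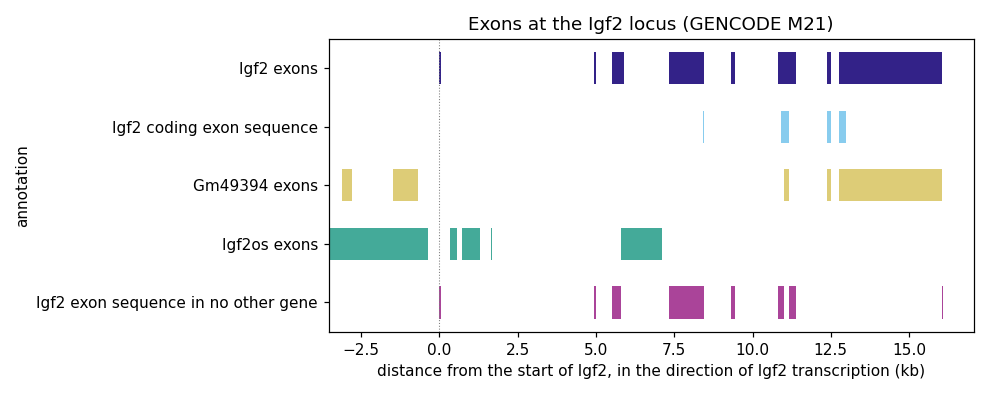
Annotated exons at the Igf2 locus (GENCODE M21), with the distance from the start of Igf2 in kb on the x axis and 1 row per set of exons. The long last exon and most of the coding sequence of Igf2 also belong to Gm49394, and the 2029 bases in no other gene (bottom row) lie mostly before the coding exons.

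Start sites were the other sequence examined, because DLX proteins are homeodomain factors and the homeodomain core TAATT can be searched for directly. RefSeq (GRCm38.p6) gave 14 start sites for the 10 members, and the 250 bases before each were searched on both strands. TAATT was present at 2 of these, both at Igf2, and in 25.0% of all 32851 start sites. The motif TATAAA was present at 2, Igfbp4 and Igfbp6, against 12.4% of all start sites. No TAATT was in the windows of Igf1 or Igfbp5, which says only that these letters are not in them. Bases before the start of Igfbp5, the member with the highest level, and of the Igf2 start site with 2 matches are shown because one window lacks the motif and the other holds it. Each is cut where an annotated exon begins, capitals mark TAATT, and the Igf1 window is not printed because it lies in exons of other Igf1 transcripts.
Igfbp5, chr1:72874885-72875115, reverse strand: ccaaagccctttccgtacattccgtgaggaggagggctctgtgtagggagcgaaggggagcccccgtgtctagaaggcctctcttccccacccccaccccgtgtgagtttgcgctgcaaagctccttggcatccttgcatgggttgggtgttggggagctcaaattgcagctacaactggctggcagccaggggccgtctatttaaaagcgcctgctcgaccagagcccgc
Igf2, chr7:142661306-142661521, reverse strand: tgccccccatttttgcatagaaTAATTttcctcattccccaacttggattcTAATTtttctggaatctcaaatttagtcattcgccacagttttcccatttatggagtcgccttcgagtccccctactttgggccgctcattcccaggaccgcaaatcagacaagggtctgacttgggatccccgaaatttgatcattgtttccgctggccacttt

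In the Igf2 window the matches start 228 and 199 bases before the RefSeq start, and the Igfbp5 window is 58.8% G and C over its 250 bases against 47.6% for that of Igf2. Nothing here measures binding of Dlx2 at these sequences.

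Igf1 (ENSMUSG00000020053, chr10:87858265-87937042, forward strand) encodes the ligand that acts through IGF1R. It had 93.4, 99.5 and 121 CPM in WT samples 1 to 3 and 267, 270 and 190 CPM in Dlx2OE samples 1 to 3. The genotypes did not overlap, and the lowest Dlx2OE sample was above the highest WT sample. The means of 105 ± 14.4 CPM (WT) and 243 ± 45.4 CPM (Dlx2OE; SD, n = 3 per genotype) differed by 1.21 ± 0.17 on the log2 scale (95% interval 0.83 to 1.60, adjusted p = 0.0116), which ranked 125th by p of 17514 genes tested. It was also past the study's fold threshold of 1 on the log2 scale. Of all genes tested, 6.45% passed, 2.99% as higher and 3.46% as lower, and 1.5% passed with a log2 fold change above 1 against 1.62% below -1. The call was lost in 2 of 6 fits with 1 sample left out: without WT 1 the adjusted p was 0.0540 and without WT 2 it was 0.0754, with log2 fold changes of 1.13 and 1.17. Over all genes, the number that passed was also smaller in those fits, at 180 and 79 of a full count of 1130.

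Macrophages, a known source of IGF1, cannot be separated from mesenchyme in this tissue. Summed macrophage markers were at 85.2 to 96.9 CPM in WT and 49.2 to 65.3 CPM in Dlx2OE. Of these 10 markers, 3 passed as lower, 9 were below 0 and 1 was above, and their part in the level of Igf1 was not tested. Of 12 mesenchyme markers 3 passed as higher (Twist1, Twist2 and Alx4), 9 were above 0 and 3 below (Barx1, Alx1 and Osr2, none passing), and their part in the level of Igf1 was not tested. Neuron markers summed to 82.9 to 361 CPM in WT and 202, 722 and 1639 CPM in Dlx2OE samples 1 to 3. The highest of these samples had the lowest Igf1 of its genotype, and the part of neurons in the level of Igf1 was not tested. Leaving out that sample, Dlx2OE 3, gave a log2 fold change of 1.36 ± 0.14 for Igf1 (adjusted p = 0.0104).

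Igf2, the main fetal ligand and an imprinted gene, was compared over the reads counted for it, which lack most coding exons if the annotation is as described above. It had 98.1, 118 and 220 CPM in WT and 138, 106 and 158 CPM in Dlx2OE. The WT samples spanned the range of Dlx2OE, and WT 3 stood above the other 5. The log2 fold change was -0.12 ± 0.29 (95% interval -0.79 to 0.56, adjusted p = 0.810). The direction was that of WT 3, since without it the value was 0.30. Within each sample, Igf1 had 0.952, 0.840 and 0.550 counts per count of Igf2 in WT and 1.93, 2.54 and 1.202 in Dlx2OE, with no overlap, and the same limit on the Igf2 counts applies to these ratios.

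**Figure D2:**
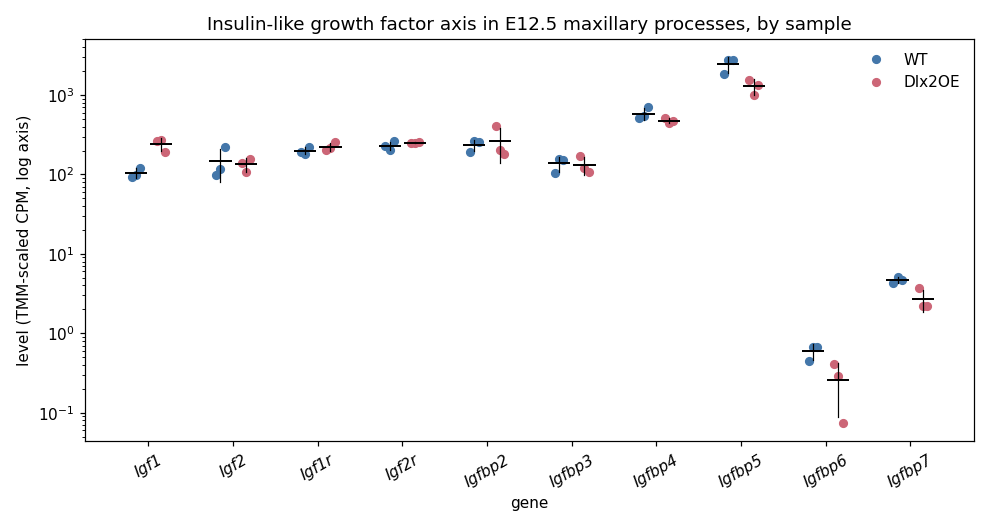
Level of each member in TMM-scaled CPM (log axis), with 1 point per sample, WT in blue and Dlx2OE in red, and bars at the mean with vertical lines of 1 SD (n = 3). The Dlx2OE points of Igf1 lie above all WT points, those of Igfbp5, Igfbp6 and Igfbp7 lie below them, and the other 6 members overlap.

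Neither receptor passed. Igf1r (ENSMUSG00000005533, chr7:67952827-68233668, forward strand), the signalling receptor, had 193, 183 and 221 CPM in WT and 204, 217 and 253 CPM in Dlx2OE. The log2 fold change was 0.17 ± 0.12 (95% interval -0.11 to 0.46, adjusted p = 0.372), and the samples of the genotypes overlapped. Igf2r (ENSMUSG00000023830, chr17:12682406-12769664, reverse strand), the clearance receptor, had 226, 203 and 261 CPM in WT and 248.9, 249.5 and 254.2 CPM in Dlx2OE. Its log2 fold change was 0.13 ± 0.12 (95% interval -0.14 to 0.39, adjusted p = 0.490), and its Dlx2OE samples all lay within the WT range. Both directions turned under the correction for gene length and GC content, to -0.21 for Igf1r and -0.12 for Igf2r, and neither passed there. Their merged exon lengths, which the correction used together with GC content, are 16791 bp for Igf1r and 9308 bp for Igf2r. Their coding sequences, which it did not use, have 4107 bp in 21 coding exons and 7449 bp in 48. The cause of the turn was not tested.

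Ratios within a sample set ligand beside receptor. Igf1 had 0.483, 0.543 and 0.548 counts per count of Igf1r in WT and 1.31, 1.25 and 0.752 in Dlx2OE, a mean of 0.525 ± 0.036 against 1.10 ± 0.31 (SD, n = 3 each). The genotypes did not overlap in this ratio. For Igf2r per Igf1r the means were 1.15 ± 0.038 and 1.13 ± 0.11, and the samples overlapped.

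Among the 6 binding proteins none passed the test. Of these, 5 had a log2 fold change below 0, against 8707 of 17514 genes tested. Those 5 include Igfbp3 at -0.06 ± 0.21 and Igfbp6, which was close to the floor. The median of the 6 was -0.54, against 0.0028 over all genes tested. Igfbp5 (ENSMUSG00000026185, chr1:72857932-72874884, reverse strand), which binds extracellular matrix, had 1813, 2733 and 2789 CPM in WT and 1557, 988 and 1326 CPM in Dlx2OE. All Dlx2OE samples were below all WT samples, and the gap from WT 1 to Dlx2OE 1 was smaller than the spread within WT. The means were 2445 ± 548 and 1290 ± 286 CPM (SD, n = 3 each), and the log2 fold change was -0.92 ± 0.24 (95% interval -1.47 to -0.38, adjusted p = 0.0570). Whether it passed depended on the method, with an adjusted p of 0.000254 in DESeq2, the study's tool, 0.0190 with no filter on low counts and 0.0418 after the length and GC correction. With 1 sample left out, the adjusted p ran from 0.0396 without Dlx2OE 1 to 0.183 without WT 2.

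Cartilage markers, the list closest to the skeletal expression of Igfbp5, summed to 749 to 1020 CPM in WT and 424 to 806 CPM in Dlx2OE, and all 6 tested were below 0 with 1 passing as lower. Pericyte and muscle markers had median log2 fold changes of -0.47 and -0.81. Summed pericyte markers overlapped, at 360 to 438 CPM in WT and 338 to 442 CPM in Dlx2OE, with 3 of 8 above 0. Facial mesenchyme markers went the other way, at 2179 to 2594 CPM in WT and 2843 to 3001 CPM in Dlx2OE, with 3 of 12 passing as higher. The part of these cell types in the level of Igfbp5 was not tested.

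Igfbp2 (ENSMUSG00000039323, chr1:72824503-72852474, forward strand) lies 5457 bp from Igfbp5 on chromosome 1, and the pair is convergent. It had 190, 260 and 255 CPM in WT and 406, 203 and 179 CPM in Dlx2OE. Dlx2OE 1 stood above the other 5 samples, and the other Dlx2OE samples were at the lower end of WT. The log2 fold change was 0.16 ± 0.30 (adjusted p = 0.742) and was -0.31 without Dlx2OE 1. Summed surface epithelium markers also peaked in that sample, at 1874 CPM against 584 and 606 CPM in the other Dlx2OE samples and 725 to 1319 CPM in WT. Not all markers of the list did so. Krt5 had 15929 reads there against 1249 to 3988 in the other samples, and Krt14 had 14506 against 3037 to 7647. Krt8 had 778 reads there against 2091 to 4265 in WT, and Krt8 and Krt18 passed as lower in Dlx2OE. The part of epithelium in the level of Igfbp2 was not tested.

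Igfbp4 (ENSMUSG00000017493, chr11:99041244-99054392, forward strand), a substrate of pappalysins, had 508, 540 and 706 CPM in WT and 511, 448 and 466 CPM in Dlx2OE. WT 3 was the highest, WT 1 lay below Dlx2OE 1, and the log2 fold change was -0.30 ± 0.15 (adjusted p = 0.231). Igfbp3 (ENSMUSG00000020427, chr11:7206086-7213923, reverse strand), the main IGF carrier of adult blood, had 104, 159 and 150 CPM in WT and 169, 120 and 108 CPM in Dlx2OE. Its samples overlapped throughout, and the log2 fold change was -0.06 ± 0.21 (95% interval -0.54 to 0.42, adjusted p = 0.866).

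Igfbp7 (ENSMUSG00000036256, chr5:77349240-77408041, reverse strand), a low-affinity IGF binder made by vessels, was counted 125, 152 and 146 times in WT samples and 109, 70 and 59 times in Dlx2OE samples. In CPM these were 4.27, 5.04 and 4.68 against 3.68, 2.23 and 2.18, with no overlap and Dlx2OE 1 nearest to WT. The log2 fold change was -0.79 ± 0.27 (adjusted p = 0.102), and without Dlx2OE 1 it was -1.09 (adjusted p = 0.0294). Endothelium markers had all 10 log2 fold changes below 0 with 1 passing, and summed levels of 367 to 517 CPM in WT and 267 to 393 CPM in Dlx2OE. Their part in the level of Igfbp7 was not tested. Of its exon sequence, 7.03% overlaps the neighbour Polr2b. Igfbp6 (ENSMUSG00000023046, chr15:102144362-102149511, forward strand), which prefers IGF2, was close to the floor, with 13, 20 and 21 reads in WT against 12, 9 and 2 in Dlx2OE. The fitted difference of -1.19 ± 0.53 on the log2 scale (95% interval -2.41 to 0.03) did not pass (adjusted p = 0.179), and the Dlx2OE samples varied widely.

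In all, the genotypes did not overlap in 4 of the 10 members (Igf1, Igfbp5, Igfbp6 and Igfbp7), against 34.1% of all genes tested. An exact permutation test of 3 against 3 samples cannot give a two-sided p below 0.1, so no member could pass by that test alone. Of the 10 log2 fold changes 4 were above 0 and 6 below, against 50.3% of all genes tested above 0, and the median was -0.09.

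Set in order per length, Igfbp5 led in WT with 407 ± 91.3 RPKM (SD, n = 3), clear of Igfbp4 at 132 ± 24.1 and Igfbp2 at 127 ± 21.2, which did not differ beyond their spread. Igfbp3 followed with 43.96 ± 9.31, then Igf2 with 25.4 ± 11.4 and Igf2r with 24.7 ± 3.10, with Igfbp3 overlapping Igf2 and Igf2 overlapping Igf2r, all 3 below Igfbp2 and above Igf1r. Igf1r with 11.9 ± 1.15 and Igf1 with 10.6 ± 1.46 RPKM overlapped, and Igfbp7 (3.86 ± 0.32) and Igfbp6 (0.534 ± 0.12) were below all others. In Dlx2OE, Igfbp5 had 215 ± 47.6 RPKM and overlapped Igfbp2 at 142 ± 67.4, while Igfbp4 had 108 ± 7.41. Igf1 stood with Igf2r and Igf2 there, at 24.5 ± 4.58 against 26.9 ± 0.31 and 23.5 ± 4.57 RPKM, and above Igf1r at 13.4 ± 1.51. Counted over its unshared exon length alone, a choice made after the locus was examined, Igf2 came to 71.7 RPKM in WT and 66.2 RPKM in Dlx2OE, which puts it above Igfbp3 in both genotypes.

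The mix of binding proteins was compared as shares of their summed level per length, which was 557, 773 and 815 RPKM in WT and 652, 416 and 460 RPKM in Dlx2OE. Igfbp5 made up 54.2%, 58.8% and 57.0% of the sum in WT and 39.7%, 39.5% and 48.0% in Dlx2OE. The share of Igfbp2 was 18.5%, 18.2% and 16.9% in WT and 33.7%, 26.4% and 21.1% in Dlx2OE. Neither share overlapped between genotypes. The same held for Igfbp3 (5.88% to 6.55% in WT, 7.48% to 9.21% in Dlx2OE) and for the small shares of Igfbp6 and Igfbp7, both lower in Dlx2OE. Igfbp4 alone overlapped. Since shares add to a fixed total, a lower share of one and higher shares of others are not separate observations. Igfbp5 also had 9.55, 10.5 and 10.9 counts per count of Igfbp2 in WT and 3.84, 4.88 and 7.39 in Dlx2OE, with no overlap.

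**Figure D3:**
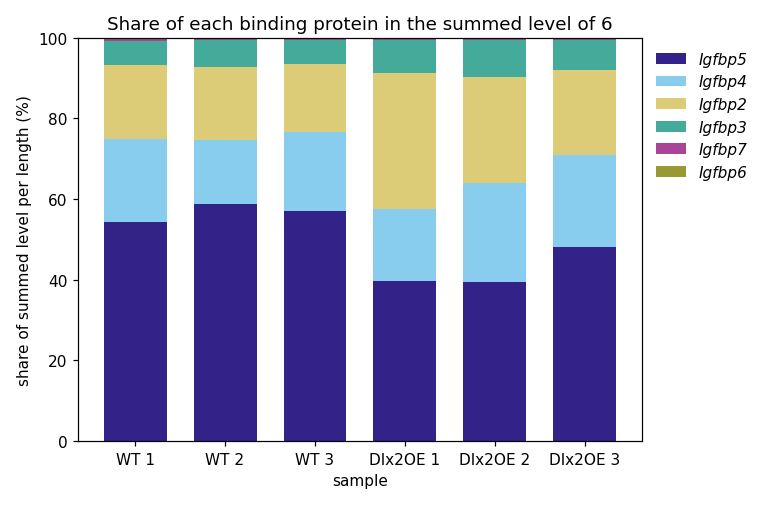
Share of each of the 6 binding proteins in their summed level per length (percent, y axis) in each sample (x axis), stacked to the full total. Igfbp5 holds 54.2% to 58.8% in the WT samples and 39.5% to 48.0% in the Dlx2OE samples.

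The wider pathway was taken from 7 lists with 81 genes, of which 76 were tested. Of these, 9 passed (11.8%, against 6.45% of all genes tested), 8 as higher and 1 as lower, and the median log2 fold change was 0.15. The lists were chosen with earlier results of these data known, so this share cannot show an excess in the pathway. Ins1 and Ins2, the insulin genes, were listed with 0 counts in all samples, and Igfals had at most 6 counts in any sample and was not tested. The fits without WT 1 and without WT 2 left none of the 76 passing in either direction. The fold changes stayed near their values, as for Pappa2 (1.56 and 1.55 against 1.63) and Shc3 (1.74 and 1.61 against 1.73), and as given above few genes of any kind passed in those fits. Without Dlx2OE 2 and without Dlx2OE 3, 1 passed as higher and 0 as lower, and without WT 3, 13 passed as higher and 5 as lower. Without Dlx2OE 1, 10 and 4 passed.

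Among proteases and their inhibitors, 1 of 4 passed, against 6.45% of all genes tested. Pappa2, a metalloprotease that cuts IGFBP3 and IGFBP5, had 10.8, 10.6 and 14.2 CPM in WT and 22.6, 29.8 and 57.7 CPM in Dlx2OE. Every Dlx2OE sample was above WT, with the highest value in Dlx2OE 3 (log2 fold change 1.63 ± 0.33, adjusted p = 0.0334). The order of the Dlx2OE samples was that of their summed neuron markers (202, 722 and 1639 CPM), and the order of the WT samples was not. WT 2 had the highest neuron sum of WT, at 361 CPM and above Dlx2OE 1, and the lowest Pappa2. The part of neurons in the level of Pappa2 was not tested. Pappa, the related protease of IGFBP4, had 11.0, 9.95 and 11.9 CPM in WT and 12.6, 14.97 and 22.8 CPM in Dlx2OE, and did not pass (0.61 ± 0.23, adjusted p = 0.127).

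In the insulin branch and family relatives, 1 of 8 passed, against 6.45% of all genes tested. Esm1, a secreted proteoglycan of activated endothelium with an IGFBP-type domain, had 15, 10 and 23 reads in WT samples against 51, 39 and 53 in Dlx2OE samples (1.63 ± 0.37, adjusted p = 0.0428). The endothelium markers had log2 fold changes below 0, and their part in the level of Esm1 was not tested. Igfbp1, the remaining classical binding protein, which faces Igfbp3 across 3539 bp on chromosome 11, had 13, 11 and 14 reads in WT samples against 5, 4 and 2 in Dlx2OE samples (-1.72 ± 0.45, adjusted p = 0.0587).

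At the imprinted loci, H19 passed as lower. H19 is the maternally expressed RNA whose imprinting control region also governs Igf2, with the expressed alleles on opposite parental chromosomes. It had 2251, 2823 and 2326 CPM in WT and 1578, 1509 and 1527 CPM in Dlx2OE (log2 fold change -0.68 ± 0.15, adjusted p = 0.0427). The call was close to the threshold, with an adjusted p of 0.0506 without scaling factors, and it held in 1 of 6 fits with 1 sample left out (log2 fold changes -0.75 to -0.58). The Dlx2OE samples lay close together and below all WT samples, and Igf2, as counted, showed no such separation. Mas1, next to Igf2r on chromosome 17 and a receptor gene of the angiotensin system, had 38, 44 and 38 reads in WT samples against 85, 80 and 114 in Dlx2OE samples (1.27 ± 0.28, adjusted p = 0.0395), and also held in 1 of those 6 fits. Of the 3 mRNA-binding proteins named for Igf2, Igf2bp1 passed, with 148, 119 and 154 CPM in WT and 207, 214 and 236 CPM in Dlx2OE (0.64 ± 0.12, adjusted p = 0.0298). Igf2bp3, of the same family, had 0.26 ± 0.11 (adjusted p = 0.161).

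**Figure D4:**
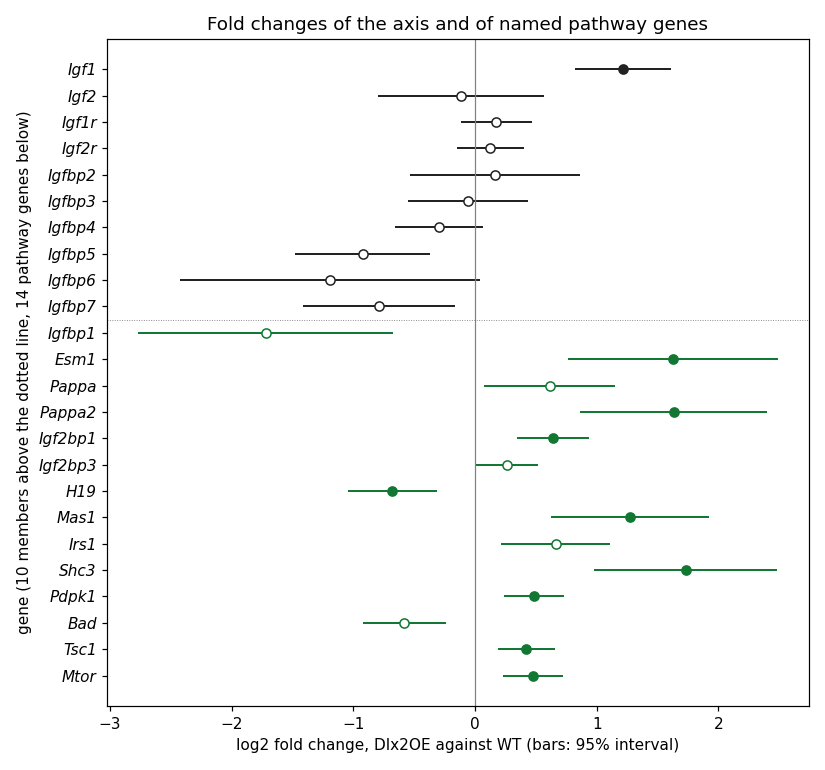
Log2 fold change of Dlx2OE against WT with its 95% interval (x axis) for the 10 members (black) and the 14 pathway genes named by rule (green), filled where the adjusted p was under 0.05. Igf1 is the one filled member, and H19 is the one filled gene below 0.

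Downstream of the receptor, 1 of 19 adaptors passed (5.26%, against 6.45% of all genes tested). Shc3, an adaptor best known from neurons, had 56, 47 and 66 reads in WT samples against 265, 130 and 149 in Dlx2OE samples, higher in every Dlx2OE sample (1.73 ± 0.32, adjusted p = 0.0271). All 10 neuron markers had log2 fold changes above 0 and none passed. Dlx2OE 1 had the most Shc3 and the lowest neuron sum of its genotype, and the part of neurons in the level of Shc3 was not tested. Irs1, the docking protein of IGF1R and the insulin receptor, had 38.4, 35.8 and 57.8 CPM in WT and 78.6, 61.0 and 69.1 CPM in Dlx2OE, with no overlap (0.66 ± 0.19, adjusted p = 0.0739).

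In the PI3K and AKT arm 1 of 21 passed (4.76%), and in the mTOR arm 2 of 15 (13.3%), against 6.45% of all genes tested. Pdpk1, the kinase that activates AKT, had 57.8, 54.9 and 67.5 CPM in WT and 85.1, 81.1 and 85.2 CPM in Dlx2OE (0.48 ± 0.10, adjusted p = 0.0382). Mtor, the kinase at the centre of the arm, had 58.6, 58.9 and 67.6 CPM in WT and 89.8, 78.9 and 88.7 CPM in Dlx2OE (0.48 ± 0.10, adjusted p = 0.0379). Tsc1, an inhibitor of that arm, also passed as higher, with 71.9, 59.4 and 67.0 CPM against 87.3, 88.1 and 89.8 CPM (0.42 ± 0.10, adjusted p = 0.0456), but it passed in 0 of the 6 fits with 1 sample left out (lowest adjusted p 0.0532). The calls therefore held an activator and an inhibitor of the same arm. Bad, a pro-death protein that AKT inactivates, had 40.2, 38.8 and 29.9 CPM in WT and 27.0, 22.8 and 22.9 CPM in Dlx2OE and did not pass (-0.58 ± 0.14, adjusted p = 0.0537).

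Several of the smaller calls did not hold in the fit that corrected for gene length and GC content together. After this correction, Pdpk1, Mtor, Tsc1 and Igf2bp1 no longer passed, with log2 fold changes of 0.25, 0.18, 0.10 and 0.39, while Igf1 (1.08, adjusted p = 0.0176) still did. Their merged exon lengths run from 9682 to 11833 bp, and that of Igf1 is 9904 bp.

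**Figure D5:**
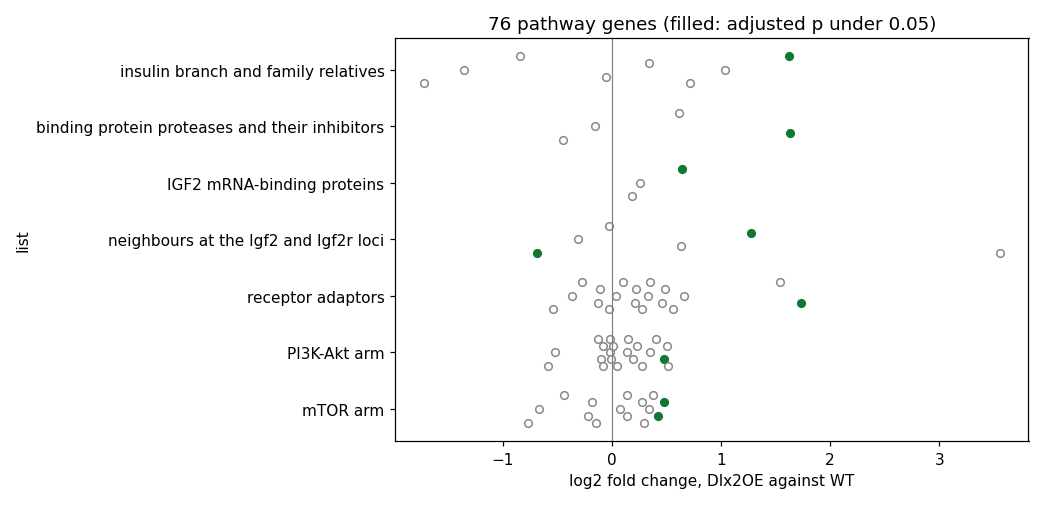
Log2 fold change of Dlx2OE against WT (x axis) for the 76 tested pathway genes, 1 point per gene in rows by list, filled where the adjusted p was under 0.05. The 9 filled points are spread over all 7 lists, 8 of them above 0, and most open points lie near 0.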

How the data were processed

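The authors removed adaptors and low-quality reads, mapped 150 bp read pairs from poly-A libraries to mm10 with STAR 2.7.3a, and deposited raw counts per gene from HTSeq 0.12.4 in union mode, 1 file per sample. The annotation release and strand setting are not given in the sources used here, and the library kit does not mark strand. The 5 summary lines of each file, reads on no gene included, entered no test.

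Symbols, positions and exons came from GENCODE M21 (53620 of 53801 identifiers). The test was edgeR's quasi-likelihood F test (version 4.0.16, R 4.3.3) with genotype as the sole term, after filterByExpr (minimum count 10) and TMM scaling, with Benjamini-Hochberg adjustment over 17514 genes. RPKM used merged exon length. Samples were grouped by the genotype in their labels. The paper calls the 3 samples of each genotype independent biological replicates, without giving the embryos behind each. The p-values set the genotype difference against the variation between these samples, moderated over all genes tested. How far that variation covers embryos and litters is not known. Floors cover counting error only, since amplified reads are not independent.

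Alternatives were DESeq2 1.42.0, other scalings and filters, a replicate block, a loess correction for length and GC content (span 0.5), removal of mitochondrial and haemoglobin genes, a test beyond 1.2-fold, and each sample left out. The members and all lists were chosen with earlier results of these data known. Named genes are the members, Dlx2, pathway genes that passed, and the smallest p of a list until it has 2. The fit was tested on simulated data. A listed gene is not reported here. Figures used matplotlib 3.10.9.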

Additional observations from a re-analysis of the deposited data

Results flagged for a closer look

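Reads on no annotated gene, which entered no comparison, were above the WT level in all Dlx2OE samples: 5.75% in Dlx2OE 1, 7.81% in Dlx2OE 2 and 14.7% in Dlx2OE 3, against at most 5.43% in WT. Igf1 was lowest of its genotype in Dlx2OE 3 and Pappa2 highest, and the part of these reads in the levels was not tested.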

How the results depend on the processing

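Igf1 was higher in Dlx2OE in all 15 alternatives and passed in 8 of 9 settings and in 4 of 6 fits with 1 sample left out, with log2 fold changes from 1.07 to 1.36. Members that passed as higher numbered 1, or 0 under the replicate block with length and GC correction and 0 to 1 with 1 sample left out, at any fold and at the study's threshold alike. Members that passed as lower numbered 0, but 1 under DESeq2, with no filter on low counts and under the length and GC correction, and 0 to 2 with 1 sample left out. At the study's threshold they numbered 0, but 1 under the length and GC correction and 0 to 2 with 1 sample left out. Pathway genes that passed as higher numbered 8, but 14 under DESeq2, 12 with no filter on low counts, 4 under the length and GC correction, 0 with the block added to it and 0 to 13 with 1 sample left out. Those that passed as lower numbered 1, but 0 without scaling factors, 6 under DESeq2, 6 with no filter, 2 with at least 10 counts in every sample, 2 under the length and GC correction, 0 with the block added to it and 0 to 5 with 1 sample left out. The cause of these changes was not tested.

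Replicate numbers 1 to 3 are shared between genotypes. Same-numbered samples had correlations of -0.072, -0.211 and 0.073 in their deviations, and not every sample correlated best with its own number, so the block was not taken as a pairing. Under the replicate block alone, 1 member passed as higher (Igf1, log2 fold change 1.21, adjusted p = 0.0335) and 0 as lower, with 8 pathway genes higher and 2 lower. The calls of H19 (adjusted p = 0.0600), Mas1 (0.0789) and Tsc1 (0.0675) were not among these, and 961 genes passed in all, against 1130.

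Directions turned for members that did not pass. Igf2 was at 0.30 without WT 3 and 0.027 without Dlx2OE 2 (range with 1 sample left out -0.34 to 0.30), and Igfbp2 at -0.31 without Dlx2OE 1 (range -0.31 to 0.37). Igfbp3 was at 4.17e-05 without scaling factors, 0.049 without WT 2, 0.0068 without Dlx2OE 2 and 0.070 without Dlx2OE 3 (range -0.28 to 0.070). Under the length and GC correction, without and with the block, Igf1r was at -0.21 and -0.21 and Igf2r at -0.12 and -0.11. The order of levels per length had a Spearman correlation with the reported order of 0.988 (WT) and 0.964 (Dlx2OE) for the longest transcript, and of 0.988 and 0.927 for exon sequence in no other gene, the last chosen after seeing the data. Over all genes, 79 to 2091 passed with 1 sample left out, 2459 under DESeq2, 2044 with no filter and 85 under the block with length and GC correction. Igfbp6 and Igfbp1 rest on few counts, and shared exons would limit Igf2 at any depth if the authors' annotation held them.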

Other observations

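Some pathway genes outside the rule for named genes were chosen after their values were seen. Insr, the insulin receptor and the closest relative of Igf1r, had 57.0, 60.9 and 72.8 CPM in WT and 77.8, 81.1 and 82.1 CPM in Dlx2OE, without overlap, and did not pass (log2 fold change 0.34 ± 0.11, adjusted p = 0.0961). Irs2, the other main docking protein beside Irs1, had 50.9, 56.3 and 69.7 CPM against 87.8, 72.9 and 83.6 CPM (0.46 ± 0.14, adjusted p = 0.0765). Kazald1, a secreted protein with an IGFBP-type domain, had 8.20, 7.43 and 6.29 CPM in WT and 1.01, 3.79 and 3.77 CPM in Dlx2OE (-1.35 ± 0.44, adjusted p = 0.0966). It did not pass in the edgeR test used here, whereas the paper, using DESeq2, names it among the genes of its downregulated extracellular matrix terms. The lowest value of Kazald1 was in Dlx2OE 1, the sample with the least cartilage marker signal, whose part in the level of Kazald1 was not tested. Th, a neighbour of Igf2 that makes the catecholamine precursor in neurons, had 8, 49 and 24 reads in WT against 2, 359 and 543 in Dlx2OE. The low value was in the Dlx2OE sample that had the least neuron marker signal, whose part in the level of Th was not tested.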
